A study of Mus musculus with 9 samples.

Results

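The 80 cytosolic ribosomal protein genes of the table are described here, of 54532 genes listed. They are its protein-coding genes whose symbol follows the Rpl, Rps, Rplp and Rpsa naming pattern, and 49 of them belong to the large subunit and 31 to the small subunit. Of these, 77 had enough counts to be tested (46 large and 31 small) among 13915 genes tested in all. The 3 untested members are Rpl3l, Rpl39l and Rpl10l.

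The RNA came from 4T1 cells, a mouse mammary carcinoma line. Cells labelled Au_TCPP received Au/Cu-TCPP(Fe)-PEG, which the labels describe as a glucose-like oxidase that also uses up glutathione. Cells labelled Cu_TCPP received Cu-TCPP(Fe)-PEG, described as using up glutathione, and Control cells received medium alone. Treatment lasted 24 h, with 3 libraries of polyadenylated RNA per group, and the sources used here do not state doses. Both materials carry copper, iron and PEG, so a comparison of either with Control does not separate the parts of the material, and both comparisons use the same 3 Control libraries.

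Each cytosolic ribosome is assembled from ribosomal RNA and one copy of most ribosomal proteins, so their mRNAs are made at similar levels in a dividing cell. Many of these mRNAs begin with a terminal oligopyrimidine (TOP) tract, a C followed by a run of pyrimidines, through which mTORC1 and LARP1 control their translation and stability. Ribosomal proteins that are not built into ribosomes are degraded, and some, such as Rpl5 and Rpl11, bind Mdm2, the ubiquitin ligase that keeps p53 low.

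Total counts lay between 15477324 and 17494776 per library. Mitochondrial genes took 1.09 to 1.47% of the counts in 8 libraries and 2.37% in Au_TCPP replicate 2. The 4T1 identity was checked with 5 epithelial markers (Epcam, Cdh1, Krt8, Krt18 and Krt19), all tested, whose summed level was 3243 to 4129 CPM (counts scaled to a common library size) in Au_TCPP, 2300 to 2514 CPM in Cu_TCPP and 2180 to 2362 CPM in Control. Adgre1, Pdgfrb and Hbb-bs, taken as markers of macrophages, fibroblasts and red cells, had 0 counts in all 9 libraries. Summed over 5 macrophage markers, the level was 72.0 to 96.5 CPM in Au_TCPP, 21.5 to 24.9 CPM in Cu_TCPP and 38.2 to 41.7 CPM in Control, and its part in the results was not tested. The 4 fibroblast markers summed to 26.6 to 31.6, 16.2 to 19.7 and 35.1 to 40.6 CPM in these groups, and endothelial and erythroid markers to at most 0.333 CPM in any library. TMM scaling factors were 0.793 to 0.889 in Au_TCPP, 1.07 to 1.09 in Cu_TCPP and 1.11 to 1.12 in Control, so levels in Au_TCPP depend more on the scaling.

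The start of the mRNA is shown first, because the TOP tract is the sequence feature that the family is known for. RefSeq promoter windows (GRCm38.p6) could be matched by symbol for 60 members. A run of a C and at least 4 further pyrimidines, beginning within 5 bases of the annotated start, was searched on the sense strand. Its C had to follow a base other than a pyrimidine or be the start base itself. Such a run was found in 23 of these 60 members (38.3%), against 15.6% of the 27025 genes in the promoter table. A tract that began with a T, as in an Rps24 window, was not counted unless a C lay at the start base. The same held for a tract that began more than 5 bases before the start, as in Rpl7a. With a C at the annotated start base itself followed by at least 4 pyrimidines, the counts were 13 of 60 members (21.7%) and 3.01% of all genes. None of 69 mitochondrial ribosomal protein genes had it at the start, and 12 of them (17.4%) had it nearby. The windows below, written in the direction of transcription, give 10 bases before the annotated start and 20 bases from it, with the pyrimidine run in capitals. Rps6, Rpl28, Rpl35, Rpl38 and Rps15a have it, and Rplp0 and Rps4x show windows without it.
Rps6, chr4:86857348-86857377, minus strand: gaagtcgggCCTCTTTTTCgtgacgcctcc
Rpl28, chr7:4792955-4792984, plus strand: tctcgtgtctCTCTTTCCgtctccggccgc
Rpl35, chr2:39005112-39005141, minus strand: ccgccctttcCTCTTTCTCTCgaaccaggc
Rpl38, chr11:114668570-114668599, plus strand: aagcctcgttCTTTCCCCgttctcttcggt
Rps15a, chr7:118116128-118116157, minus strand: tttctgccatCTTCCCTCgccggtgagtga
Rplp0, chr5:115559457-115559486, plus strand: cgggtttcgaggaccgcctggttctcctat
Rps4x, chrX:102189372-102189401, minus strand: gctgggcggagcaacccaggctccagcgcg
An annotated start a few bases from the true one moves the window, so a window without the run says only that these letters are not at this place.

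Ribosomal protein genes took about 10% of all counts in the cells treated with the gold material and about 6% in the other cells. The percentages were 10.3, 10.6 and 9.72% in the 3 Au_TCPP libraries (10.2 ± 0.466%, mean ± SD, n = 3), 5.68, 5.83 and 5.94% in Cu_TCPP (5.82 ± 0.133%, n = 3) and 5.96, 6.21 and 6.30% in Control (6.16 ± 0.175%, n = 3). The 95% Wilson interval of the first Au_TCPP library was 10.26 to 10.28%, which covers counting error only. Every Au_TCPP library lay above every other library, and the highest Cu_TCPP library lay just below the lowest Control library. Both subunits took a larger share in Au_TCPP, with means of 6.06% (large) and 4.15% (small), against 3.71 and 2.44% in Control. The ratio of large to small subunit counts was 1.44 to 1.48 in Au_TCPP, 1.503 to 1.56 in Cu_TCPP and 1.51 to 1.53 in Control. It was thus lower in every Au_TCPP library than in any Cu_TCPP or Control library. Counts are shares of a library, so more ribosomal protein mRNA per cell and less of other mRNA per cell cannot be told apart. Likewise, in RNA from whole cultures, fewer cells and less RNA per cell cannot be told apart.

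**Figure D1:**
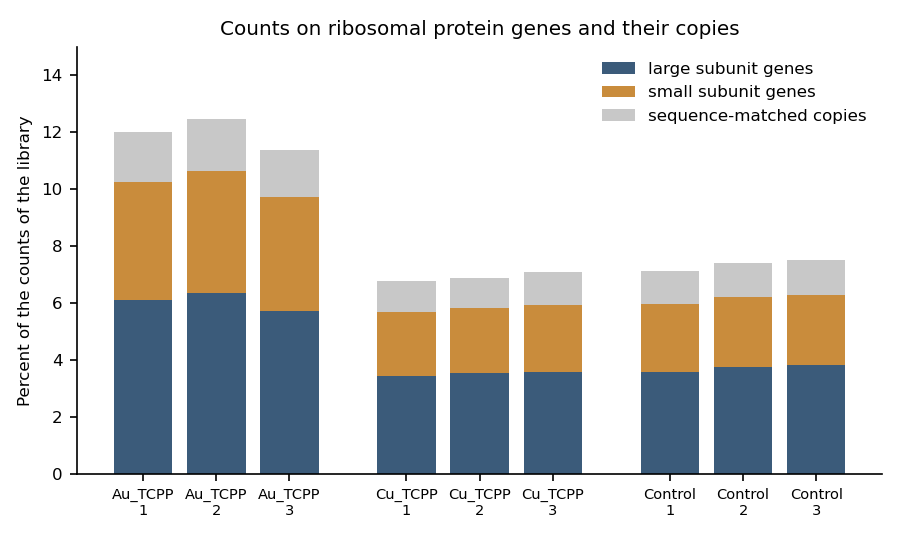
Percent of all counts (y axis, linear from 0) in each of the 9 libraries (x axis) on large subunit genes, small subunit genes and the sequence-matched copies of both, stacked. The 3 Au_TCPP bars reach higher than the 6 Cu_TCPP and Control bars in each of the 3 layers.

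In Au_TCPP against Control, 77 of 77 tested members rose at an adjusted p under 0.05 (edgeR quasi-likelihood test, Benjamini-Hochberg over all 13915 genes tested), where 34.4% of all genes tested rose and 34.7% fell. In all 77 the Au_TCPP libraries lay above the Control libraries without overlap, as they did in 35.3% of all genes tested, and 64 members rose by at least 1 on the log2 scale, against 13.6% of all genes tested. The median log2 fold change of the members was 1.24, a 2.37-fold higher level, with quartiles of 1.11 and 1.36, and that of all genes tested was -0.013. The median was 1.22 over the large subunit and 1.26 over the small subunit.

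Among large subunit members, Rpl36a, which lies near the exit site for spent tRNA, had 933, 973 and 978 CPM in Au_TCPP and 317, 338 and 339 CPM in Control. Its log2 fold change was 1.54 ± 0.079 (SE; edgeR adjusted p = 8.6e-10). Rpl5, which carries the 5S ribosomal RNA into the large subunit together with Rpl11, had 2933, 2749 and 2946 CPM in Au_TCPP and 1117, 1180 and 1180 CPM in Control (log2 fold change 1.31 ± 0.079, edgeR adjusted p = 3.37e-09). Rpl11 had 1731, 1777 and 1693 CPM in Au_TCPP and 721, 784 and 815 CPM in Control (1.16 ± 0.085, edgeR adjusted p = 2.22e-08). For these 3 genes the lowest Au_TCPP library was above the highest Control library by far more than the replicates of either group differed. Rpl23, which also binds Mdm2, Rpl31, Rpl27a, Rpl10, which joins the subunit late in assembly, and Rpl39, at the peptide exit tunnel, rose by 1.46, 1.49, 1.24, 1.29 and 1.46 on the same scale.

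The stalk of the large subunit, where elongation factors dock, is built from Rplp0, Rplp1 and Rplp2. Rplp1 had 4023, 3750 and 3840 CPM in Au_TCPP and 1720, 1850 and 1924 CPM in Control (log2 fold change 1.08 ± 0.086, edgeR adjusted p = 5.35e-08). The rise was 1.09 ± 0.12 for Rplp2 and 0.85 ± 0.096 for Rplp0. All 3 stalk genes lay below the median of the members. Rpl41, a very short basic protein, rose by 0.98 ± 0.083. Rpl3, a protein that reaches towards the peptidyl transferase centre, moved least among large subunit members. It had 1718, 1580 and 1715 CPM in Au_TCPP and 1156, 1190 and 1214 CPM in Control (0.49 ± 0.081, edgeR adjusted p = 7.56e-05). With scaling by library totals alone, Rpl3 did not pass (0.070, edgeR adjusted p = 0.359).

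On the small subunit, Rps24 had 1950, 2012 and 1898 CPM in Au_TCPP and 729, 744 and 728 CPM in Control (log2 fold change 1.41 ± 0.080, edgeR adjusted p = 2.05e-09). Rps6, the substrate whose phosphorylation is used as a readout of mTORC1, had 3060, 2838 and 2994 CPM in Au_TCPP and 1209, 1198 and 1215 CPM in Control (1.30 ± 0.078, edgeR adjusted p = 3.64e-09). Rps13, Rps16, Rps20 and Rps4x rose by 1.36, 1.33, 1.25 and 1.38. The Au_TCPP levels of these 6 genes all lay above those of Control, with no overlap. Rps19 and Rps14, which are mutated or lost in human anaemias, rose by 1.28 and 1.11. Rps3, at the mRNA entry channel, rose by 1.01, Rps28 by 1.25, and Rpsa, known also as a laminin receptor, by 0.92.

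Rps2 had the smallest change of all members in Au_TCPP against Control, with 64.5, 58.8 and 59.9 CPM in Au_TCPP and 41.1, 54.9 and 51.6 CPM in Control (log2 fold change 0.31 ± 0.11, edgeR adjusted p = 0.0202). It was named after its values were seen. The lowest Au_TCPP library was only slightly above the highest Control library. Its direction turned with scaling by library totals alone (-0.11) and with copies and length offsets together (-0.022). It did not pass with length offsets (0.090, edgeR adjusted p = 0.484) or with pseudogenes of its name added (0.19, edgeR adjusted p = 0.101), and it also failed to pass without Control replicate 1 (0.16, edgeR adjusted p = 0.213), without Au_TCPP replicate 1 (0.24, edgeR adjusted p = 0.109) or without Au_TCPP replicate 3 (0.29, edgeR adjusted p = 0.0511).

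**Figure D2:**
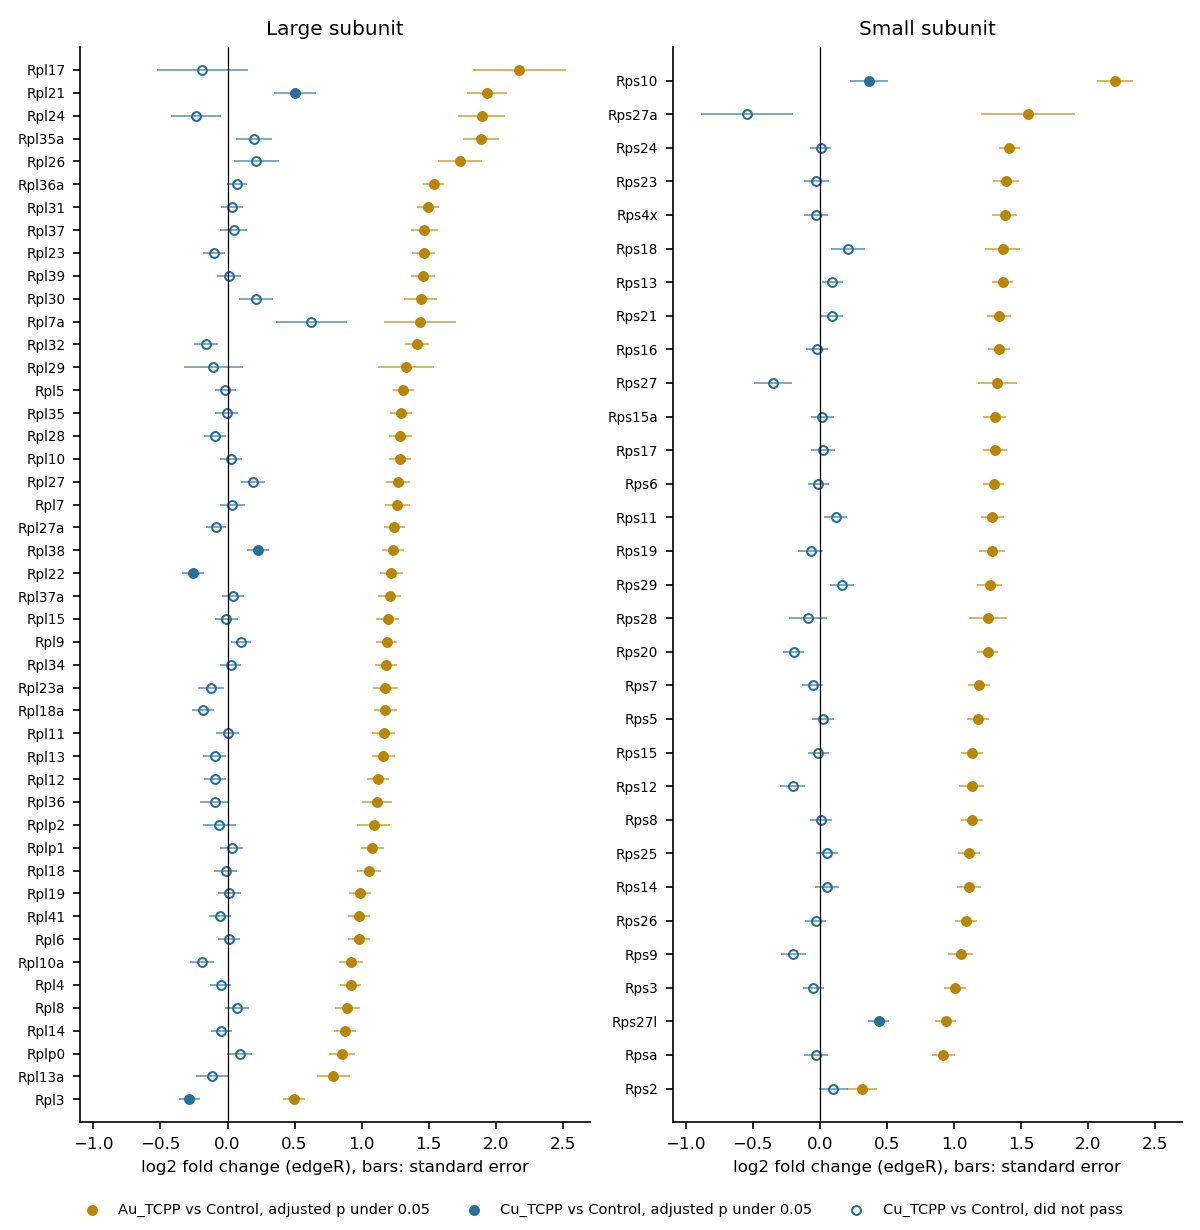
log2 fold change from edgeR (x axis) with its standard error (bars) for the 46 large and 31 small subunit genes tested (y axis), in Au_TCPP against Control and in Cu_TCPP against Control. Filled points passed an adjusted p of 0.05. All Au_TCPP points lie right of 0, from 0.31 to 2.20, while the Cu_TCPP points lie around 0.

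The copper material alone left most members near their Control level. In Cu_TCPP against Control, 4 of 77 tested members rose, where 19.2% of all genes tested rose, and 2 fell, where 21.2% of all genes tested fell. Together 6 passed, where 40.4% of all genes tested passed in either direction. The other 71 did not pass, and the median log2 fold change was -0.0083 for the members and -0.011 for all genes tested. Libraries did not overlap for 7 members with Cu_TCPP above Control (29.4% of all genes tested) and for 7 with Cu_TCPP below Control (30% of all genes tested). The count of members that passed depended on single libraries. It was 14 (6 rose and 8 fell) without Au_TCPP replicate 2, a library outside this comparison. Its removal changes the filter, the scaling and the shared estimate of the spread. Of the 14232 genes then tested, 3627 rose and 3552 fell, against 2673 and 2944 of 13915 with all libraries. The count of members was 3 without Control replicate 3, 3 without Cu_TCPP replicate 1, and 1 without Control replicate 2. Over all genes tested, those that rose and fell then numbered 2081 and 2246, 2227 and 2313, and 2024 and 2202.

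Rps27l, a paralog of Rps27 that is induced by p53 in human and mouse cells, was the member that rose with the smallest adjusted p in Cu_TCPP. It had 146, 141 and 143 CPM in Cu_TCPP and 103, 105 and 109 CPM in Control (log2 fold change 0.44 ± 0.076, edgeR adjusted p = 0.000433). The replicates of each group lay within a few CPM of each other, the groups were well apart, and Rps27l passed whichever of the 9 libraries was left out. In Au_TCPP it had 201, 212 and 196 CPM, a log2 fold change of 0.94 ± 0.076 against Control (edgeR adjusted p = 6.53e-08). Its partner gene Rps27 had 227, 327 and 274 CPM in Cu_TCPP and 304, 354 and 400.3 CPM in Control, which overlapped (-0.35 ± 0.14, edgeR adjusted p = 0.0614). Rps27 did pass without Au_TCPP replicate 2, without Cu_TCPP replicate 2 or without Control replicate 1 (-0.34 to -0.48, edgeR adjusted p from 0.0257 to 0.0469). Summed with its near-identical copies, Rps27 had 498, 394 and 515 CPM in Cu_TCPP and 444, 462 and 479 CPM in Control. The means of these sums were 469 and 462 CPM, so the lower level of Rps27 alone was not seen in the sums.

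Rpl38, known in mouse embryos for its part in the translation of Hox mRNAs, had 266, 287 and 257 CPM in Cu_TCPP and 224, 229.5 and 239 CPM in Control (log2 fold change 0.23 ± 0.082, edgeR adjusted p = 0.0383). Rpl21 and Rps10 passed at low levels. Rpl21 had 6.24, 6.58 and 5.14 CPM in Cu_TCPP and 4.67, 4.05 and 3.95 CPM in Control (0.50 ± 0.15, edgeR adjusted p = 0.0177). Rps10, a substrate of ribosome quality control, had 7.71, 9.93 and 9.21 CPM in Cu_TCPP and 6.002, 6.96 and 7.90 CPM in Control (0.36 ± 0.14, edgeR adjusted p = 0.0491). Leaving out 1 library ended each of these 3 calls: any Cu_TCPP or Control library for Rpl38 (edgeR adjusted p from 0.0579 to 0.133), Cu_TCPP replicate 2 or Control replicate 2 or 3 for Rpl21 (0.0566 to 0.0646), and Au_TCPP replicate 1, Cu_TCPP replicate 2 or 3 or Control replicate 1 or 2 for Rps10 (0.0542 to 0.183). With a replicate block the adjusted p was 0.0537 for Rpl38 and 0.0552 for Rps10. The Rps10 groups overlapped, and both Rpl21 and Rps10 turned direction once the counts of their near-identical copies were added (-0.18 and -0.042).

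Rpl3 and Rpl22 fell. Rpl3 had 968, 927 and 1029 CPM in Cu_TCPP and 1156, 1190 and 1214 CPM in Control (log2 fold change -0.28 ± 0.081, edgeR adjusted p = 0.0119). With its copies added the change of Rpl3 was -0.33 (edgeR adjusted p = 0.00421). Its pseudogene Rpl3-ps1, with 463, 553 and 520 CPM in Cu_TCPP and 626, 702 and 690 CPM in Control, was also below Control in every library. Rpl22, which is dispensable for ribosomes in most mouse cells and needed for T cell development, had 468, 484 and 506 CPM in Cu_TCPP and 549, 591 and 603 CPM in Control (-0.26 ± 0.084, edgeR adjusted p = 0.0249). Neither gene passed with length offsets (-0.18 for Rpl3 and -0.15 for Rpl22). Rpl3 did not pass without Cu_TCPP replicate 1 or 2 or Control replicate 2 or 3 (edgeR adjusted p from 0.0511 to 0.074), and Rpl22 did not pass when Cu_TCPP replicate 1, 2 or 3 or Control replicate 2 or 3 was left out (0.0536 to 0.132). Most other members with known roles differed little from Control and did not pass. Rpl23 (-0.10), Rps28 (-0.090) and Rps19 (-0.070) had the lowest of these values and Rps14 (0.050) and Rplp0 (0.090) the highest, and those of Rplp1, Rplp2, Rpl5, Rpl10, Rpl11, Rpl39, Rpl41, Rps3, Rps4x, Rps6 and Rpsa lay between. Rps27 (-0.35) and Rps27a (-0.54), which also did not pass, lay outside this range.

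The comparison of both materials uses the same 3 Au_TCPP libraries as that of Au_TCPP with Control, so the values of these comparisons are not independent. In Au_TCPP against Cu_TCPP, 76 of 77 members rose, where 34.6% of all genes tested rose and 65.9% passed in either direction. The median log2 fold change was 1.24 for the members and 0.038 for all genes tested. Libraries lay apart without overlap for all 77, against 34.4% of all genes tested, and 65 rose by at least 1 on the log2 scale, against 14.8%. Rps27l had one of the smaller differences (0.50 ± 0.076, edgeR adjusted p = 3.83e-05), and Rps2 did not pass (0.21 ± 0.11, edgeR adjusted p = 0.0999). Adjusting for gene length took away the Rps27l difference (0.020), and adjusting for length and GC content turned it (-0.21, edgeR adjusted p = 0.0196).

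Gene length moved with the Au_TCPP difference over the whole table. The mean exonic length of the counted gene was 4549 to 4669 nt in Au_TCPP libraries and 5601 to 5754 nt in the other 6. Among genes other than the members, the median log2 fold change in Au_TCPP against Control was 0.66 up to 1000 nt of exons (n = 1265), 0.17 between 2000 and 3000 nt (n = 2143) and -0.27 over 4000 nt (n = 6706). The members showed no such slope by exonic length: their median was 1.23 up to 1000 nt (n = 11), 1.18 between 2000 and 3000 nt (n = 19) and 1.27 over 4000 nt (n = 6, which include Rps24, Rps15a and Rps19). Exonic length joins all annotated exons of a gene, so it can exceed the length of an mRNA. Rpl35a, for example, has 3526 nt of exons in the GENCODE M21 annotation and 333 nt of coding sequence. These classes therefore cannot show whether the members follow a trend with mRNA length, which was not tested. With offsets that take out the trend with exonic length fitted over the other genes, 76 members rose in Au_TCPP against Control, with a median of 1.02. These offsets carry the same limit. With scaling by library totals alone, 75 rose with a median of 0.82, while the median of all genes tested was -0.43. Across the 77 members, Spearman's rho of the Au_TCPP change was -0.068 with exonic length, -0.33 with coding length and -0.33 with the level per kilobase. These are descriptions over genes that share the same libraries.

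**Figure D3:**
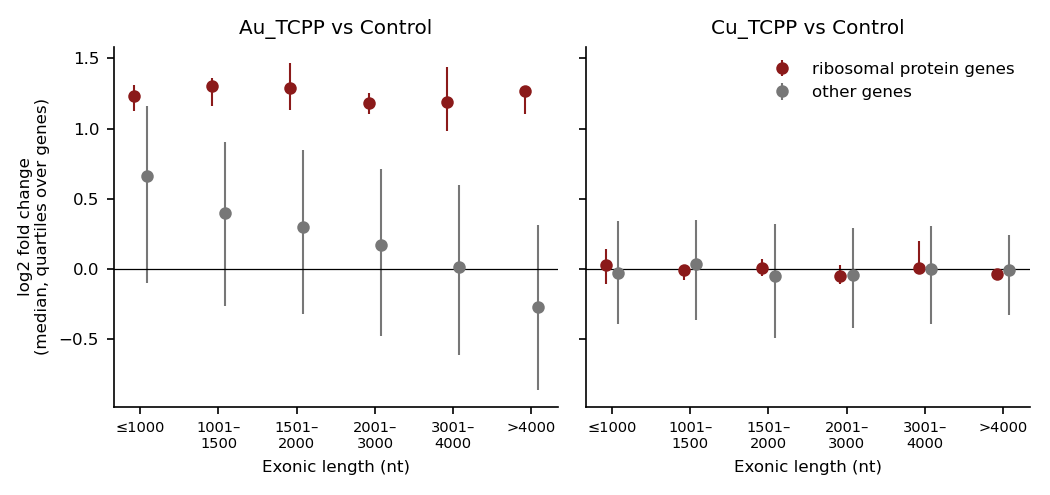
Median log2 fold change with quartiles over genes (y axis) by exonic length (x axis, nt), for ribosomal protein genes and all other genes tested, in Au_TCPP against Control (left) and Cu_TCPP against Control (right). In the left panel the other genes fall with length from 0.66 to -0.27, and the ribosomal protein genes stay between 1.18 and 1.30 in every length class.

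Members with the TOP run as searched here did not stand apart clearly from the others. In Au_TCPP against Control the median log2 fold change was 1.30 over the 13 tested members with the run at the start (0.88 to 2.20), 1.12 over 10 with a run nearby (0.31 to 1.49) and 1.20 over 34 without one (0.85 to 1.90). The members without one include tracts that begin with a T, as in Rps24. All values are of the gene alone. The highest (Rps10) and the lowest (Rps2) belong to genes with most counts on near-identical copies. Rpl28, Rpl35, Rpl38, Rps6 and Rps15a, whose windows are printed above, had log2 fold changes of 1.29, 1.29, 1.23, 1.30 and 1.30. Rplp0 and Rps4x, printed without the run, had 0.85 and 1.38.

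Levels per length differed widely between members. Rplp1 had the highest mean level per kilobase of exons (5060 CPM per kb over all 9 libraries), and Rpl21 the lowest among tested members (2.58 CPM per kb). Per kilobase of coding sequence, Rpl41 was highest and Rpl29 lowest in each of the 3 groups. For Rpl21 and Rpl29, such low values came with counts on processed pseudogenes, intronless copies of ribosomal protein mRNAs inserted elsewhere in the genome. A search of GENCODE M21 transcripts found 534 genes outside the members that matched a member's coding sequence (at least 95% identity over at least 90% of its length), and 71 members had at least 1 such copy with counts. In 11 members more than 50% of the counts of member and copies together lay on the copies. They are Rpl26 (98.7%), Rpl29 (97.9%), Rps2 (96.6%), Rps10 (96.6%), Rpl21 (90.4%), Rps18 (84.3%), Rpl30 (78.6%), Rpl17 (71.0%), Rpl35a (70.02%), Rpl24 (68.2%) and Rplp0 (53.1%). Adding the copies left some members low. With copies, Rpl24 was lowest in each of the 3 groups, at 47.1 CPM per kb of coding sequence in Control, where the median was 1543. Rpl24 shares 47.0% of its exonic bases with Gm28037 on the same strand, and the part of such overlaps in low levels was not tested.

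Stretches of the coding sequence show how alike a gene and its copy are. Each pair below gives 60 bases of the member and then of the copy from GENCODE M21 transcripts, with the differing bases in capitals and positions counted from the first base of the start codon. Over the whole coding sequence, Rpl26 and Gm15772 differ at 2 of 438 bases, Rpl30 and Gm12191 at 1 of 348, Rplp0 and Gm8730 at 12 of 954, and Rps27 and Rps27rt at 0 of 255.
Rpl26, chromosome 11, bases 123 to 182: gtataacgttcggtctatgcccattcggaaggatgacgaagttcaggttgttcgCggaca
Gm15772, chromosome 5: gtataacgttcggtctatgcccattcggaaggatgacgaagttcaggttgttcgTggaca
Rpl30, chromosome 15, bases 42 to 101: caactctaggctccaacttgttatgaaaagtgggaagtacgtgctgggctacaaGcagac
Gm12191, chromosome 11: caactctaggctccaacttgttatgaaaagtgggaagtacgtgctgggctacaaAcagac
Rplp0, chromosome 5, bases 339 to 398: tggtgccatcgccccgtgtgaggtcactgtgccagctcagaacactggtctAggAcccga
Gm8730, chromosome 8: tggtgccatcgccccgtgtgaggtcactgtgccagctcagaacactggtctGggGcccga
Rps27, chromosome 3, bases 1 to 60: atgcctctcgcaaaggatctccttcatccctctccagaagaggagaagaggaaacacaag
Rps27rt, chromosome 9: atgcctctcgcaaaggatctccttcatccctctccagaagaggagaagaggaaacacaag
The sources used here do not say how reads matching both genes of such a pair were counted, so values of these members alone are uncertain.

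Most copies also rose in Au_TCPP. Of the 241 copies with enough counts to be tested, 191 rose and 2 fell in Au_TCPP against Control, where 34.4% of all genes tested rose and 34.7% fell, with a median log2 fold change of 1.08. With length offsets 119 rose and 7 fell (median 0.58), where 4930 of 13915 genes tested rose and 4284 fell (median 0.046). With library totals alone 127 rose (median 0.66), where 2626 of all genes tested rose (median -0.43). Against Control, 1 rose and 30 fell in Cu_TCPP, where 19.2% of all genes tested rose and 21.2% fell, with a median of -0.22. The copies took 1.66 to 1.81% of counts in Au_TCPP, 1.06 to 1.16% in Cu_TCPP and 1.16 to 1.22% in Control. Set over the counts of the members, these were 16.8 to 17.1% in Au_TCPP, 18.2 to 19.5% in Cu_TCPP and 19.3 to 19.5% in Control, lower in every Au_TCPP library than in the other 6.

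Summing each member with its copies brought the members closer together. In Au_TCPP against Control, 76 of 77 sums rose, with a median log2 fold change of 1.22, and the SD over members was 0.23 for the sums and 0.30 for the members alone. The members with the largest changes alone, Rps10 (2.20), Rpl17 (2.18), Rpl21 (1.94) and Rpl26 (1.73), had 1.12, 1.22, 1.15 and 1.25 as sums. Rpl24 and Rpl35a had 1.90 and 1.89 alone and 1.47 and 1.61 as sums. Rps2 remained lowest, with 0.20 for the sum (edgeR adjusted p = 0.0717). With Cu_TCPP, 3 sums rose against Control and 3 fell, of which Rpl24 fell (-0.41, edgeR adjusted p = 0.00963) and Rpl7a rose (0.41, edgeR adjusted p = 0.0448).

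**Figure D4:**
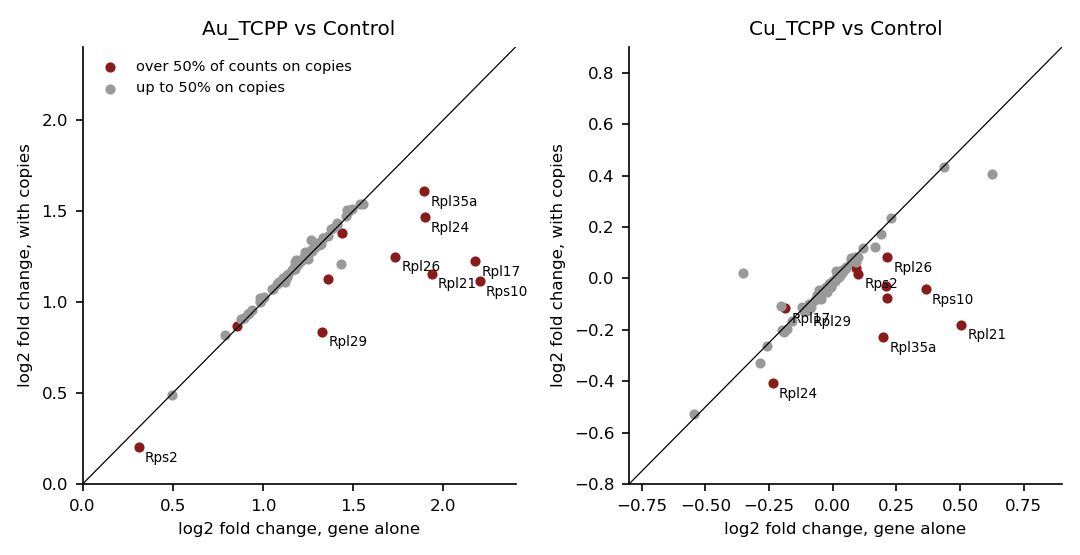
log2 fold change of each tested member alone (x axis) and summed with its sequence-matched copies (y axis), in Au_TCPP against Control (left) and Cu_TCPP against Control (right), with the line of equal values. Members with more than 50% of counts on copies, such as Rps10 (2.20 alone, 1.12 with copies, left panel), leave the line, and most others lie on it.

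A few members varied between replicates of the same group, in 1 group or in more. Rpl17 had 689, 797 and 278 CPM in Au_TCPP and 124, 121 and 145 CPM in Control (log2 fold change 2.18 ± 0.35, edgeR adjusted p = 0.000602). Its copy Rpl17-ps10 had 399, 286 and 806 CPM in the same Au_TCPP libraries, high where Rpl17 was low, and 337, 350.0 and 310.3 CPM in Control. The sum of Rpl17 and its copies was 1541, 1504 and 1494 CPM in Au_TCPP and 644, 661 and 640.2 CPM in Control. Rps27 and Rps27rt, a gene of identical coding sequence, showed the same: Rps27 was lowest (738 CPM) and Rps27rt highest (441 CPM) in Au_TCPP replicate 2, and the sums were 1129.6, 1187.9 and 1135.5 CPM in Au_TCPP and 444, 462 and 479 CPM in Control.

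Rps27a, which encodes ubiquitin fused to a small subunit protein, was spread over the Cu_TCPP libraries in another way. It had 1907, 1765 and 1887 CPM in Au_TCPP, 267, 312 and 721 CPM in Cu_TCPP and 734, 587 and 575 CPM in Control. The Cu_TCPP libraries overlapped Control through replicate 3 alone (log2 fold change -0.54 ± 0.34, edgeR adjusted p = 0.246, against -1.12 and 4.66e-05 without that replicate), and the copies of Rps27a did not even this out (307, 340.0 and 748 CPM as sums in Cu_TCPP). Part of its exons (8.11%) overlaps Clhc1 on the other strand. Rpl7a had 648, 499.7 and 416 CPM in Au_TCPP, 399, 262 and 231 CPM in Cu_TCPP and 138, 197 and 243 CPM in Control, and its exons overlap 2 snoRNA genes on the same strand. In Cu_TCPP against Control, Rpl7a had 0.63 (edgeR adjusted p = 0.0884) and passed without Cu_TCPP replicate 3 (0.78) or Control replicate 3 (0.84). The sources used here do not say if reads were counted by strand, and the part of these overlaps in the values was not tested.

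**Figure D5:**
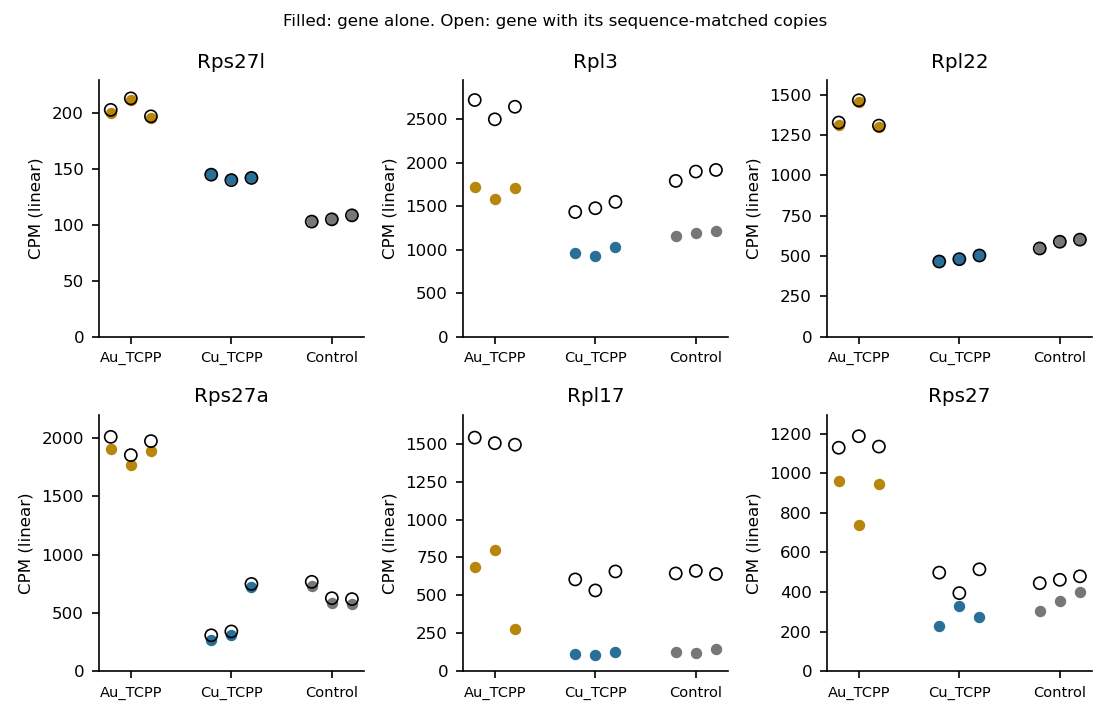
CPM (y axes, linear from 0) of Rps27l, Rpl3, Rpl22, Rps27a, Rpl17 and Rps27 in each library of Au_TCPP, Cu_TCPP and Control (x axes), for the gene alone (filled) and with its sequence-matched copies (open). The Rpl17 points of Au_TCPP are spread from 278 to 797 alone and lie between 1494 and 1541 with copies, while the Rps27a points of Cu_TCPP stay spread either way.

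The paralogs known for restricted tissues were nearly silent. Rpl3l, a muscle paralog with 74.4% coding identity to Rpl3, had 1, 2 and 1 counts in Au_TCPP, 9, 0 and 2 in Cu_TCPP and 0 in each Control library. Rpl39l, a testis paralog with 85.3% identity to Rpl39, had 1 count in 1 Au_TCPP library and 0 in the other 8. Rpl10l, a testis paralog with 84.8% identity to Rpl10, had 0 counts in all 9. These values give no basis for a fold change.

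Of 8 ribosomal protein genes that the naming pattern leaves out, 7 rose in Au_TCPP against Control, where 34.4% of all genes tested rose, and 1 did not pass. Their median log2 fold change was 1.20. With library totals alone it was 0.79, and that of all genes tested was -0.43. Rack1, a scaffold on the small subunit, had 4230, 3772 and 4096 CPM in Au_TCPP and 1750, 1800 and 1850 CPM in Control (1.16 ± 0.085, edgeR adjusted p = 2.09e-08). Rps3a1 and Fau, the ubiquitin-like fusion of another small subunit protein, rose by 1.17 and 1.08, and Rpl22l1, the paralog of Rpl22, rose by 1.72. Rps27rt did not pass (1.23 ± 0.63, edgeR adjusted p = 0.128) but did without Cu_TCPP replicate 2 (1.19, edgeR adjusted p = 0.0437). Of the 8, 1 rose in Cu_TCPP against Control, Rpl7l1, a relative of Rpl7. It had 147, 161 and 154 CPM in Cu_TCPP and 95.8, 98.1 and 104 CPM in Control (0.63 ± 0.081, edgeR adjusted p = 4.09e-05). In Au_TCPP Rpl7l1 rose by 0.41 against Control, which was -0.014 with library totals alone. It fell by 0.22 against Cu_TCPP (edgeR adjusted p = 0.0276, and 0.0681 without Cu_TCPP replicate 3). In that comparison 6 of the 8 rose, where 34.6% of all genes tested rose.

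The mitochondrial ribosomal protein genes, the closest comparator, are given beside them. Of 77 tested, 51 rose and 3 fell in Au_TCPP against Control, where 34.4% of all genes tested rose and 34.7% fell, with a median log2 fold change of 0.43. With library totals alone 18 rose (median 0.016), where 2626 of 13915 genes tested rose (median -0.43). With length offsets 43 rose and 8 fell (median 0.31), where 4930 of all genes tested rose and 4284 fell (median 0.046). Against Control, 37 rose and 0 fell in Cu_TCPP at the same threshold (edgeR quasi-likelihood test), where 19.2% of all genes tested rose, with a median of 0.27. In Au_TCPP against Cu_TCPP, 33 rose and 14 fell, against 34.6% and 31.3% of all genes tested. The median was 0.14, and -0.23 with library totals alone and -0.11 with length offsets. Those of all genes tested were 0.038, -0.33 and 0.0023 in these settings. The cytosolic members had medians of 1.24, -0.0083 and 1.24 in these comparisons, and the difference between both lists was not tested.

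A list of 19 other genes known for TOP mRNAs holds translation factors and also Npm1, Hnrnpa1, Nap1l1 and Cct4, which have other functions. The run searched above was near the annotated start of 5 of the 12 genes with a promoter window. In Au_TCPP against Control 17 of the 19 rose and 1 fell, against 34.4% and 34.7% of all genes tested. Their median log2 fold change was 0.83. With library totals alone it was 0.40, and that of all genes tested was -0.43. Tpt1, a translationally controlled growth protein, had 5576, 5009 and 5389 CPM in Au_TCPP and 1846, 1863 and 1918 CPM in Control (1.51 ± 0.083, edgeR adjusted p = 1.5e-09). Naca and Eef1b2, of the nascent chain complex and of elongation, rose by 1.28 and 1.19, and Eif4b, a helicase cofactor of initiation, fell by 0.38. With Cu_TCPP, 2 rose and 3 fell against Control, against 19.2% and 21.2% of all genes tested: Tpt1, Eef2 and Eif4b fell by 0.29, 0.29 and 0.38. Tpt1 did not pass without Cu_TCPP replicate 2 or Control replicate 2 or 3 (edgeR adjusted p from 0.0578 to 0.0697), nor Eef2 without Cu_TCPP replicate 1 or Control replicate 2 or 3 (0.0574 to 0.0781). With length offsets neither Tpt1 nor Eef2 passed (both -0.18). Then 5 genes of the list rose and 1 fell, where 3720 of 13915 genes tested rose and 2377 fell. Leaving out 1 library gave 1 to 4 of the list that rose and 1 to 5 that fell. These were 1 and 1 without Control replicate 2 or 3 and 4 and 5 without Au_TCPP replicate 2. Without Au_TCPP replicate 2, 3627 of 14232 genes tested rose and 3552 fell.

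A list of proteins that escort ribosomal proteins holds chaperones of single members and the general nuclear import receptors Kpnb1, Ipo7 and Ipo9. Of 10 tested, 6 rose and 3 fell in Au_TCPP against Control, against 34.4% and 34.7% of all genes tested, and Kpnb1 (-0.30) and Ipo9 (-0.67) were 2 of the 3 that fell. The median log2 fold change of the 10 was 0.47. With library totals alone it was 0.051 and 3 rose, where all genes tested had a median of -0.43 and 2626 of 13915 rose. In Cu_TCPP 7 rose and 0 fell against Control (edgeR quasi-likelihood test), against 19.2% and 21.2% of all genes tested. Tsr2, the chaperone of Rps26, rose in both (1.19 and 0.47), as did Ltv1, a small subunit assembly factor (1.19 and 1.01). Grwd1, the chaperone of Rpl3, had 30.1, 29.6 and 32.9 CPM in Au_TCPP, 48.3, 55.8 and 48.8 CPM in Cu_TCPP and 24.7, 21.8 and 23.0 CPM in Control. Its change was 0.41 ± 0.098 in Au_TCPP (edgeR adjusted p = 0.00163) and 1.14 ± 0.095 in Cu_TCPP (edgeR adjusted p = 1.03e-06) against Control. The Au_TCPP value of Grwd1 was -0.0094 with library totals alone and 0.23 with length offsets, where it did not pass. Heatr3, which carries Rpl5 into the nucleus in human cells, fell by 0.68 in Au_TCPP and rose by 0.41 in Cu_TCPP.

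Of 19 genes of the mTORC1 and LARP1 control of TOP mRNAs, 7 rose and 9 fell in Au_TCPP against Control, against 34.4% and 34.7% of all genes tested. In Cu_TCPP 4 rose and 5 fell, against 19.2% and 21.2%, so the counts of those that rose lay near the shares over all genes. The Cu_TCPP counts were 8 and 5 without Au_TCPP replicate 2, where 3627 of 14232 genes tested rose and 3552 fell. With length offsets they were 8 and 4, where 3720 of 13915 genes tested rose and 2377 fell. Larp1, which binds the TOP tract, had 105, 133 and 134 CPM in Au_TCPP, 384, 440.4 and 416 CPM in Cu_TCPP and 299, 301 and 293 CPM in Control. It fell by 1.27 in Au_TCPP (edgeR adjusted p = 5.8e-08) and rose by 0.47 in Cu_TCPP (edgeR adjusted p = 0.00173). Sesn2, an inhibitor of mTORC1 in amino acid sensing, had 175, 148 and 177 CPM in Au_TCPP and 31.0, 30.3 and 32.1 CPM in Control (2.42 ± 0.091, edgeR adjusted p = 5.02e-11). Eif4ebp2, a repressor of initiation that mTORC1 inactivates, fell by 1.69, and Tsc2, a brake on mTORC1, fell by 1.25 in Au_TCPP.

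Of 15 genes of ribosome surveillance and quality control, 5 rose and 7 fell in Au_TCPP against Control, against 34.4% and 34.7% of all genes tested, so the count that rose was at that share. In Cu_TCPP 1 rose and 2 fell, against 19.2% and 21.2%. Of these 2, Map3k20 (-0.28, edgeR adjusted p = 0.0461) did not pass when any Cu_TCPP or Control library was left out (edgeR adjusted p from 0.0564 to 0.182), nor with RLE factors, DESeq2 or length offsets. Without Au_TCPP replicate 2, 3 rose and 2 fell, without Au_TCPP replicate 3, 2 rose and 2 fell, and without Cu_TCPP replicate 2, 2 rose and 1 fell. Over all genes tested, those that rose and fell then numbered 3627 and 3552 of 14232, 3030 and 3099 of 14290, and 2437 and 2525 of 14310. Mdm2 and Trp53 rose by 1.25 and 1.64 in Au_TCPP and differed from Control by 0.084 and 0.046 in Cu_TCPP without passing. Ltn1, a ubiquitin ligase for stalled chains, fell by 0.79 in Au_TCPP. Among 10 transcription factors of ribosomal protein genes, 3 rose and 3 fell in Au_TCPP against Control, near the 34.4% and 34.7% of all genes tested. In Cu_TCPP 5 rose and 0 fell (edgeR quasi-likelihood test), against 19.2% and 21.2%. That count of 5 was 9 with length offsets, where 3720 of 13915 genes tested rose. It was 8 without Au_TCPP replicate 2, where 3627 of 14232 genes tested rose. It was 3 without Control replicate 1 and 2 without Cu_TCPP replicate 1, Cu_TCPP replicate 3 or Control replicate 3. Without Control replicate 2 it was 1, where 2024 of 14237 genes tested rose. Zbtb11 and Tbpl1 rose by 2.05 and 1.23 and Sp1 fell by 0.63 in Au_TCPP, while Sp1 rose by 0.28 in Cu_TCPP. That call was lost without Cu_TCPP replicate 1 or 3 or Control replicate 2 or 3 (edgeR adjusted p from 0.054 to 0.074).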

How the data were processed

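The 9 libraries were prepared (QIAseq FX Single Cell RNA Library Kit) for sequencing on a HiSeq2000, per the labels' protocols. The submitters' processing notes name mm10, Bowtie 0.12.9, Cufflinks 2.1.1 and HTSeq. The deposited table holds raw read counts per gene, per the file headers. The deposited FPKM, per the file headers, were used only in alternatives, and carry a further factor per library of unstated origin. The authors' deposited log2 fold changes and p-values were not used, nor were the group means beside them.

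The test on counts was that of edgeR 4.0.16, run in R 4.3.3 (TMM factors, filterByExpr, robust quasi-likelihood fit of all 9 libraries, Benjamini-Hochberg over 13915 genes), calling an adjusted p under 0.05. The biological coefficient of variation was 10.6%. Standard errors are the log2 fold change over the square root of F. The labels do not say whether replicates were grown separately. The p-values therefore cover the spread among these libraries alone, which may be technical. The members, the lists and the alternatives were chosen with earlier results of these data known.

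Coding sequences were compared with GENCODE M21 transcripts by BLAST+ 2.17.0. Of the table's gene identifiers, 54409 are in GENCODE M21, 98.3% of them with the same coordinates, including 78 of the 80 members.

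Genes were named by a rule: per subunit the 6 members with the smallest p in each direction, per list the 3 genes with the smallest p among those that passed (the most abundant gene where none did), 20 members known for a role, the paralogs ending in l, the highest and lowest level per length, and members against the majority. Rps2, Rpl17, Rpl7a, Rpl24, Rpl26, Rpl29, Rpl30, Rpl35a and Rps18, the members with printed promoters, and Fau, Rps27rt, Rpl7l1, Kpnb1, Ipo7, Npm1, Hnrnpa1, Nap1l1, Cct4 and some levels in a further group were added after their values were seen. Alternatives were RLE factors, library totals, TMM factors without the members, other filters, DESeq2 1.42.0, limma 3.58.1 on log2 FPKM, a replicate block, a stricter threshold, the 6 libraries of a comparison, offsets for length and GC content, protein-coding genes alone, pseudogenes of the same name added, and leaving out each library. Sums with sequence-matched copies were an alternative chosen after seeing the data. Simulated counts were used to check that the fit recovered known changes. One marker list is not reported here.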

Additional observations from a re-analysis of the deposited data

How the results depend on the processing

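In Au_TCPP against Control and against Cu_TCPP the count of members that rose stayed within 1.5 times under every alternative run. The median of 1.24 in Au_TCPP against Control was 0.82 with library totals alone, 1.20 without a filter on low counts, 1.02 with offsets for gene length, 1.04 with length and GC offsets, and 1.01 for sums with copies and length offsets. Against Cu_TCPP the same settings gave 0.87, 1.16, 0.96, 0.93 and 0.94. In Cu_TCPP against Control the median was 0.081 with length offsets, 0.079 with length and GC offsets and 0.066 for sums with copies and length offsets. Over all genes tested these settings gave medians of 0.079, 0.077 and 0.081, near those of the members. The count of 6 members in Cu_TCPP against Control was 10 with library totals alone (2 rose and 8 fell) and 14 with the 6 libraries alone (6 rose and 8 fell). It was 1 at an adjusted p under 0.01 and 12 with length and GC offsets (12 rose). Over all genes tested, 2266 of 13915 rose and 3194 fell with library totals alone. With the 6 libraries alone 3720 of 13576 rose and 3661 fell, and with length and GC offsets 3829 of 13915 rose and 2433 fell. Such calls rest on small differences, and the cause of the changes was not tested.

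The members' mean percent of counts in Au_TCPP, Cu_TCPP and Control was 16.0, 11.2 and 11.8% of summed FPKM, 10.8, 6.27 and 6.66% with pseudogenes of the same name, and 11.9, 6.93 and 7.35% with sequence-matched copies. Among protein-coding genes alone it was 5.99% in Cu_TCPP and 6.36% in Control.

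Without 1 library at a time, the members that passed numbered 76 to 77 in Au_TCPP against Control (medians 1.17 to 1.24), 75 to 76 against Cu_TCPP (1.18 to 1.24) and 1 to 14 in Cu_TCPP against Control (-0.025 to 0.032). The percent of counts was 9.995 to 10.5% in Au_TCPP, 5.75 to 5.89% in Cu_TCPP and 6.08 to 6.25% in Control.

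Single genes that turned were Rps2 (-0.11 with library totals, -0.022 with copies and length offsets), Grwd1 (-0.0094 with library totals) and Rpl7l1 (-0.014 with library totals) in Au_TCPP against Control, Rpl21 (-0.14 with named pseudogenes, -0.18 with copies, -0.066 with copies and length offsets) and Rps10 (-0.039 with named pseudogenes, -0.042 with copies) in Cu_TCPP against Control, and Rps27l (-0.21 with length and GC offsets) in Au_TCPP against Cu_TCPP. Of the values of single genes under alternatives in Cu_TCPP against Control, 93 no longer passed, the 5 that turned included, and 24 newly passed.

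Deviations from the group means correlated by -0.085 to 0.090 between libraries with the same replicate number. Libraries with different numbers were not compared, so these values do not settle whether the numbers pair the libraries. With a replicate block, 77 members rose in Au_TCPP against Control, 76 against Cu_TCPP, and 4 passed in Cu_TCPP against Control (2 rose and 2 fell). With the block and length offsets the medians were 1.02, 0.96 and 0.081, in Au_TCPP against Control, Au_TCPP against Cu_TCPP and Cu_TCPP against Control. Those of all genes tested were then 0.041, 0.0006 and 0.078.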
